A study of Mus musculus with 4 samples.

Results

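Of the 10 genes described here, Mitf, Sox10, Sox9, Pax3, Lef1 and Tfap2a encode transcription factors of the melanocyte lineage. Zeb1, Zeb2 and Snai2 encode factors best known from epithelial-mesenchymal transition, or EMT, and Ets1 encodes an ETS factor. These 10 genes were chosen by name, and every probe set that the array's annotation assigns to them alone was taken. This gave 31 probe sets of 45101 on the array and 10 genes of 18193. Total RNA was profiled on 4 Affymetrix arrays from melan-a cells, an established immortal line of mouse melanocytes, with 1 culture for each condition. All 4 cultures were melan-a Hmhi cells or derivatives of them, kept for 14 days in medium with dialyzed serum. Their usual growth medium holds TPA, a phorbol ester, and cholera toxin, which raises cyclic AMP; the protocol lists neither for the 14 days. Hmhi cells were starved or received 100 ng/ml EGF, and Hmhi-Miz1 kd cells (source label pS-Miz1) and Hmhi-MYC-TA cells both received 100 ng/ml EGF. The labels do not spell out Hmhi, pS-Miz1 or MYC-TA, and they do not say whether a line was 1 clone.

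The labels do not name the scale of the deposited signals, which their range shows to be a log scale read here as log2, so a difference of 1 is 2-fold. They ran from 2.94 to 15.12 with a median of 6.66 in every array, set equal by the authors' normalization, so a shift shared by all genes could not show. A signal below that median is called dim here, since background can then limit a difference. With 1 array per condition each difference compares 2 arrays and not the conditions, no test was possible, and no p-value is given. The error given is the SD among sets that read the same gene, a technical spread, which was 0.32 for Hmhi EGF minus Hmhi starved, 0.22 for Miz1 kd minus Hmhi EGF, 0.25 for MYC-TA minus Hmhi EGF and 0.41 for MYC-TA minus Miz1 kd.

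As background, MITF is the basic helix-loop-helix leucine zipper factor that drives pigment cell survival and the pigment enzymes. SOX10 and PAX3 bind the melanocyte promoter of Mitf, LEF1 brings beta-catenin to it, and a CREB site there answers to cyclic AMP. ZEB2 and SNAI2 are expressed in normal melanocytes as well as in EMT, whereas ZEB1 and TWIST1 are known from invasive melanoma.

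Promoters of 300 bases, from 250 before to 50 after each start, were taken from RefSeq on GRCm38.p6, and 4 of the 10 genes matched (Mitf, Lef1, Tfap2a and Zeb2). The sequences shown are the most downstream of the 3 Mitf promoters listed and those of Tyr, Tyrp1 and Dct, the 3 pigment enzymes that MITF is known to activate, because the levels of Mitf and of these enzymes are compared further on. Capitals mark the CREB motif TGACGTCA in Mitf and, in the enzymes, CATGTG, the core of the M-box that MITF binds. Both strands were searched, and the first capitals in Dct, CACATG, are that core on the other strand. The Mitf stretch is chr6:97991533-97991832 on the plus strand, with the motif at -153 from the start. Tyr is chr7:87493463-87493762 on the minus strand, Tyrp1 chr4:80833963-80834262 on the plus strand and Dct chr14:118052197-118052496 on the minus strand.
Mitf: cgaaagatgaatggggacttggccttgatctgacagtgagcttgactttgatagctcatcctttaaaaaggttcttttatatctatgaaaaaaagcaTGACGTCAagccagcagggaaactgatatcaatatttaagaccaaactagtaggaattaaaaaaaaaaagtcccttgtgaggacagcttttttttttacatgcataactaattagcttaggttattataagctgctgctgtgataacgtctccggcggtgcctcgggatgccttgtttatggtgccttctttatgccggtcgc
Tyr: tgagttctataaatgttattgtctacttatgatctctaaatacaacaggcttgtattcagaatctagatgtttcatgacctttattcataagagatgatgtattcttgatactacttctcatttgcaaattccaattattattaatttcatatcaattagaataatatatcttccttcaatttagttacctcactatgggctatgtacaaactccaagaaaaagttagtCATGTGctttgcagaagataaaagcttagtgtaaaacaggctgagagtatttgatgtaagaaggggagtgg
Tyrp1: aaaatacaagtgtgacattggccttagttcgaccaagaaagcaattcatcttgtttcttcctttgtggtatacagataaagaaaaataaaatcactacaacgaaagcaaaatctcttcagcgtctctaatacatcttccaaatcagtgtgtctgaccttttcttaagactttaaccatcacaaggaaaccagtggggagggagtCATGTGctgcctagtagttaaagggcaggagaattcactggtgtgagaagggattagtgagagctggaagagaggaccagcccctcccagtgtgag
Dct: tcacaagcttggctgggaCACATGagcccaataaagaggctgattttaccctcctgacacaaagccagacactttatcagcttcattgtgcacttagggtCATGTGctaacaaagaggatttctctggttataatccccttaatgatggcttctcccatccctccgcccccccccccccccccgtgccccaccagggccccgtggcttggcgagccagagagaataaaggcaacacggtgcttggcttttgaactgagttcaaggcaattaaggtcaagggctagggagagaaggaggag

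TGACGTCA was found in 1.79% of the 32851 promoters in the table. CATGTG was found in 14.2% of them, and in at least 1 promoter of 15.9% of the genes. Of 25 direct MITF target genes listed for comparison, 20 were in the table and 9 held that core. It stood at -21 in Tyr, at -46 in Tyrp1 and at -232 and -150 in Dct. These matches describe the letters only.

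The arrays' labels were checked first on the gene that the kd construct is named for. On its brighter set Zbtb17, which encodes Miz-1, had 8.73 starved and 8.72 with EGF in Hmhi cells, 9.08 in the array labelled Miz1 kd, called the kd-labelled array here, and 8.71 in MYC-TA. The kd-labelled array was thus the highest of the 4 on that set, and 0.22 above Hmhi EGF on the dimmer one, so its directions go by the label only. Of 11 melanocyte markers, among them Mitf and Sox10 of the 10 genes, Tyr and Ednrb were dim in all 4 arrays. In each array 8 or 9 of the 11 were at or above the array median. Of 8 keratinocyte markers 2 were at or above it in each array, of 6 endothelial markers at most 1, of 6 immune markers 2 or 3 and of 10 fibroblast markers 3 to 5. Among immune markers Ptprc was dim in all arrays, while Lyz2 was at 10.74 to 12.37. Among fibroblast markers Col1a1, Lum, Thy1 and Dpt were dim in all, while Dcn was at 9.45 to 11.56, Pdgfrb at 6.91 to 11.16 and Pdgfra at 7.40 to 8.24. Schwann cell markers were not low, with 4 or 5 of 6 at or above the median. Their log2 summed signal was 15.2 starved and 14.5 with EGF in Hmhi cells, 14.8 in the kd-labelled array and 14.4 in MYC-TA, and that of the melanocyte list had the same order, at 15.2, 14.7, 14.9 and 14.5. Hmhi starved was also the highest array for Mitf, which is on the melanocyte list, and for Zeb1, Zeb2, Snai2, Tfap2a and Ets1. The melanocyte sum is led by its brightest genes, such as Tyrp1. The mean log2 level of that list was instead highest in Hmhi EGF, at 9.38 beside 9.11 in Hmhi starved. It was 9.08 in the kd-labelled array and 8.88 in MYC-TA. Of its 9 markers that entered with EGF, 3 were at least 2-fold higher and 1 lower, against 7.98% and 4.96% of all genes. Most of the Schwann sum is Mbp, at -0.70 with EGF. Of the 5 Schwann markers that entered that comparison, 3 were at least 2-fold lower (Egr2 at -3.26, where Hmhi EGF was dim, Mal at -2.84 and Pmp22 at -2.15) and Cdh19 had 0.29, with a median of -2.15. The part of these lists in the differences of the 10 genes was not tested. Marker genes named here were chosen after their values were seen. In bulk RNA, fewer cells of a type and less RNA per cell cannot be told apart.

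All 10 genes were above the array median in all 4 arrays on their brightest set, the one used for each gene below, so none was lost to the filter on low values. Of the 31 sets, 6 were dim in every array: 1 each of Mitf, Sox9 and Lef1 and 3 of Zeb1.

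**Figure D1:**
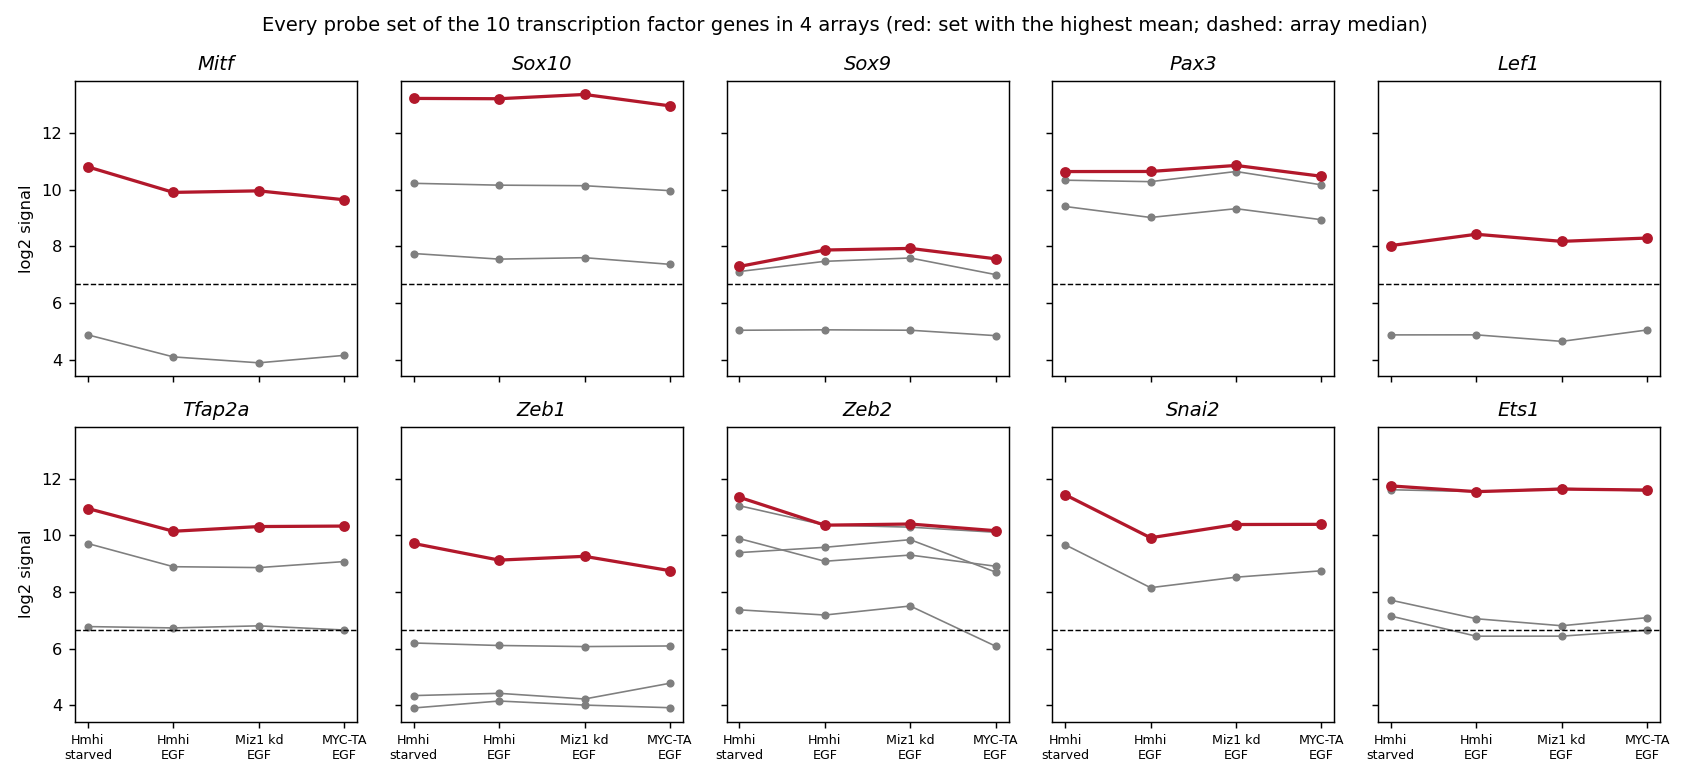
Each panel is 1 gene, each line 1 probe set and each point 1 array; the y axis is the log2 signal and the dashed line the array median of 6.66. Lines join the values of a set and mark no order in time. Mitf, Tfap2a, Zeb1, Zeb2 and Snai2 were highest in Hmhi starved on the set drawn in red, while Sox10, Pax3 and Ets1 were nearly level.

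Mitf, the master regulator of the lineage, read 10.81 starved and 9.91 with EGF in Hmhi cells, 9.96 in the kd-labelled array and 9.65 in MYC-TA. The 3 EGF arrays lay close together and all of them below Hmhi starved. Hmhi EGF minus Hmhi starved was -0.90, which is 1.87-fold, against the technical SD of 0.32. Its other set was dim at 4.88, 4.10, 3.90 and 4.16 in the same order and had -0.78 for that comparison. Between the EGF arrays the largest difference of the brighter set was -0.32, for MYC-TA minus Miz1 kd, within the SD of 0.41. MYC-TA minus Hmhi EGF was -0.26, just past its SD of 0.25, and the dim set had 0.05.

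Sox10, the SOXE factor that marks neural crest glia and melanocytes, read 13.23, 13.21, 13.37 and 12.96 in the order Hmhi starved, Hmhi EGF, Miz1 kd and MYC-TA. With the arrays put in order of level, no neighbours differed by more than their technical SD. MYC-TA was the lowest array on all 3 Sox10 sets, by 0.18 to 0.25 against Hmhi EGF. The difference for EGF was -0.01 on the brightest set, and its sign turned under a loess correction.

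Sox9, the second SOXE factor, known to act on the Mitf and Dct promoters in melanocytes, read 7.30 starved and 7.88 with EGF in Hmhi cells, 7.93 in the kd-labelled array and 7.57 in MYC-TA. On this set Hmhi starved was lowest, though MYC-TA was only 0.27 above it, inside the SD of 0.31 for that pair, and MYC-TA was lowest on the other 2 sets. EGF minus starved was 0.58 on this set and 0.36 on the second, both past the SD of 0.32, and 0.01 on the last, which was dim. MYC-TA minus Hmhi EGF was -0.31, -0.47 and -0.20 on the same 3 sets.

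Pax3, the paired-box factor that acts with SOX10 on Mitf, read 10.64, 10.65, 10.86 and 10.48 in the order Hmhi starved, Hmhi EGF, Miz1 kd and MYC-TA. The kd-labelled array was above Hmhi EGF on all 3 sets, by 0.21, 0.36 and 0.31, of which the last 2 passed the SD of 0.22. MYC-TA was below Hmhi EGF by 0.08 to 0.17, all inside the SD.

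Lef1, the nuclear partner of beta-catenin, read 8.03, 8.43, 8.18 and 8.30 in that order of arrays. Its EGF difference of 0.40 passed the SD, but no neighbours in its order of levels did. Tfap2a, which encodes AP-2 alpha and shares enhancers with MITF, read 10.95 in Hmhi starved and 10.14, 10.31 and 10.33 in the 3 EGF arrays. All 3 EGF arrays were at least 0.62 below Hmhi starved, and they differed among themselves by less than the SD. Its second set, an _s_at set that may read more than 1 gene, had nearly the same EGF difference (-0.82 against -0.80), while the third, close to the array median, had -0.05.

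Snai2, the gene of the zinc finger repressor Slug, which melanoblasts need, stood out with EGF. It read 11.43 starved and 9.91 with EGF in Hmhi cells, 10.38 in the kd-labelled array and 10.39 in MYC-TA. This set is an _x_at set, which can cross-hybridize. The second set read 9.67, 8.15, 8.52 and 8.75. Hmhi starved was highest and Hmhi EGF lowest on both sets, with EGF minus starved at -1.52 on each, or 2.87-fold on the brighter. The other EGF arrays lay between, above Hmhi EGF by 0.47 each on the brighter set and by 0.37 and 0.60 on the second, all past the SD. The MYC-TA array and the kd-labelled array were 0.01 apart on the brighter set and 0.23 on the other, both inside the SD.

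Zeb2, a zinc finger repressor that keeps melanocytes differentiated, read 11.34 starved and 10.36 with EGF in Hmhi cells, 10.40 in the kd-labelled array and 10.16 in MYC-TA. Again the 3 EGF arrays lay together below Hmhi starved. EGF minus starved was -0.98, or 1.98-fold, just short of the 2-fold threshold. Of the 4 other Zeb2 sets, 1456389_at and 1434298_at had -0.68 and -0.80, while 1454200_at and 1458941_at had -0.18 and 0.19.

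Those last sets also parted from the rest in MYC-TA. Set 1454200_at read 7.37 starved and 7.19 with EGF in Hmhi cells, 7.50 in the kd-labelled array and 6.09 in MYC-TA, where it was dim. Set 1458941_at read 9.39, 9.58, 9.85 and 8.70. MYC-TA was the lowest array on both, by -1.10 and -0.88 against Hmhi EGF, while the other 3 sets differed by -0.18 to -0.26. RefSeq's annotation places a noncoding gene, Zeb2os, and the microRNA gene Mir5129 over Zeb2, and which transcript these sets read is not given in the sources used here.

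Zeb1, the repressor of E-cadherin in EMT, read 9.71 starved and 9.12 with EGF in Hmhi cells, 9.26 in the kd-labelled array and 8.75 in MYC-TA on its only set above the median. EGF minus starved was -0.59 and MYC-TA minus Hmhi EGF -0.37, both past the SD. On the brightest sets its direction was the same as that of Zeb2 in both comparisons. The -0.20 of Zeb2 for MYC-TA minus Hmhi EGF, however, was inside the SD. The 3 dim sets had EGF differences of -0.09 to 0.24.

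Ets1, an ETS factor that ERK phosphorylates, read 11.74, 11.54, 11.63 and 11.60 in the order Hmhi starved, Hmhi EGF, Miz1 kd and MYC-TA. No neighbours differed past the SD. Its second bright set agreed, with an EGF difference of -0.07 beside -0.20. The weaker pair of sets, near the array median, had -0.66 and -0.71, so the sets of this gene disagree on the size.

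**Figure D2:**
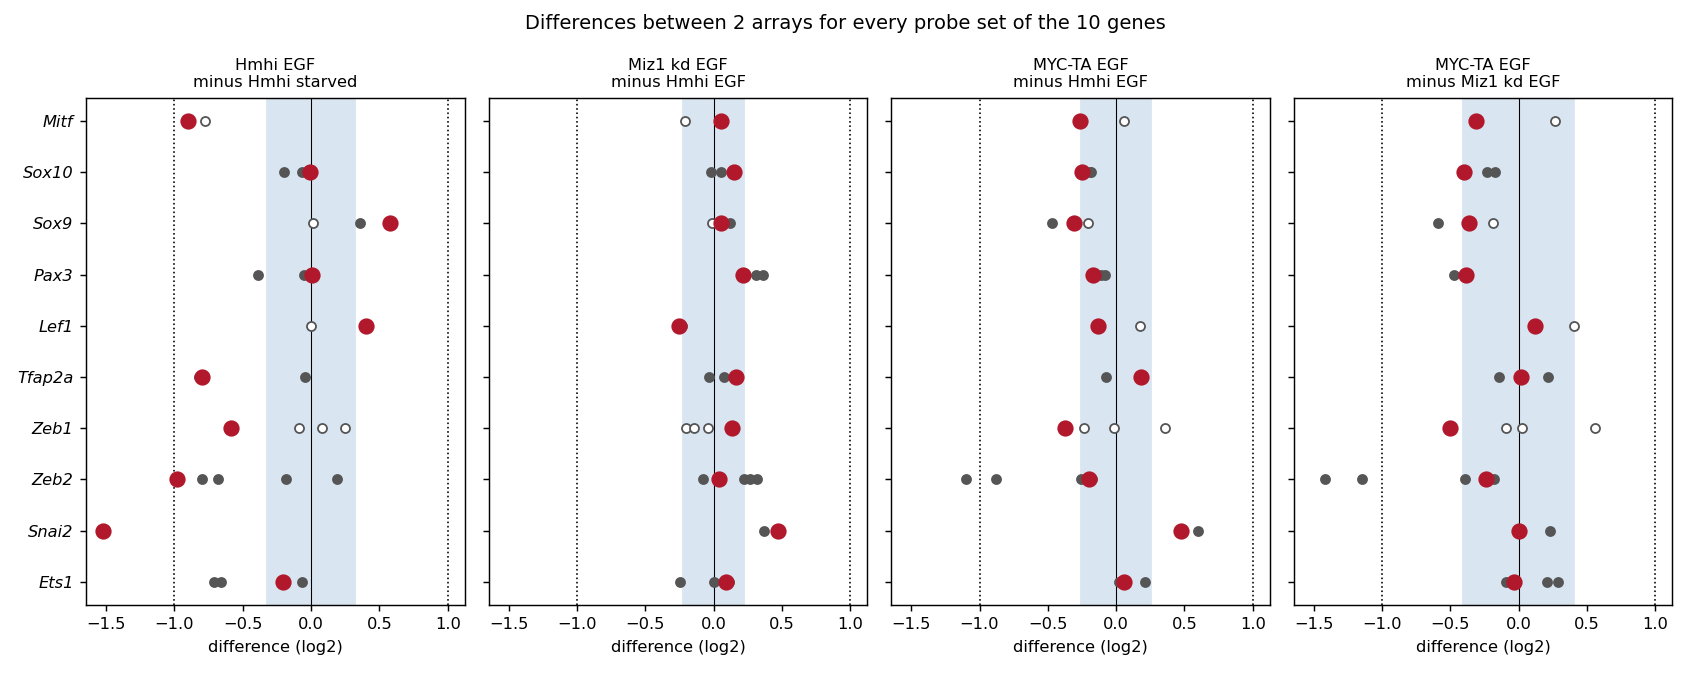
Each panel is 1 comparison of 2 arrays, with the log2 difference on the x axis and 1 row per gene; each point is a probe set, large and red for the brightest of a gene, open where dim in all arrays. The shaded band is the technical SD of that comparison and the dotted lines mark 2-fold. Snai2 lies past 2-fold with EGF, at -1.52 on both sets, and past that line elsewhere lie only the sets of Zeb2 at -1.10, -1.42 and -1.14 in the MYC-TA panels.

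Read against all genes, few of the 10 were past 2-fold. With EGF that was Snai2 alone, 1 of 10, against 12.9% of 11461 genes in either direction and 4.96% lower. For Miz1 kd minus Hmhi EGF it was 0 of 10 against 2.79%, for MYC-TA minus Hmhi EGF 0 of 10 against 2.95%, and for MYC-TA minus Miz1 kd 0 of 10 against 11%. At 1.5-fold, 5 of 10 were lower with EGF (Snai2, Zeb2, Mitf, Tfap2a and Zeb1) and 0 higher, against 13.3% and 16.7% of all genes. Of these 5, Zeb1 was at -0.56 after loess and so below 1.5-fold, as were Tfap2a at -0.56 and Zeb2 at -0.49 with the mean of all sets. No gene of the 10 was past 1.5-fold in the other 3 comparisons, where 9.14%, 14.3% and 29.4% of all genes were. Among single sets not dim in both arrays, 2 of 25 were at least 2-fold lower with EGF (both of Snai2) against 5.66% of all sets, 1 of 24 in MYC-TA minus Hmhi EGF against 2.44%, and 2 of 24 in MYC-TA minus Miz1 kd against 7.1%, all 3 values from Zeb2.

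Over these 4 comparisons the median of the 10 genes was furthest from 0 with EGF, at -0.39 beside 0.01 over all genes, with 7 of 10 lower. Of all genes, 49.4% were lower with EGF. For Miz1 kd minus Hmhi EGF the median of the 10 genes was 0.11 beside 0.02, with 9 of 10 genes higher, against 52.3% of all genes. For MYC-TA minus Hmhi EGF it was -0.18 beside 0.04, with 7 of 10 lower, against 44.7%. For MYC-TA minus Miz1 kd it was -0.28 beside 0.04, also with 7 of 10 lower, against 46.8%. Most signs in the last 3 comparisons rest on differences inside the technical SD. Only Snai2 and Lef1 passed it for Miz1 kd minus Hmhi EGF, where 21.6% of all genes passed it upward and 23.0% downward. For MYC-TA minus Hmhi EGF, Snai2, Mitf, Sox9 and Zeb1 passed it, against 26.3% upward and 20.5% downward of all genes. For MYC-TA minus Miz1 kd it was Zeb1 alone, against 25.2% and 19.4%. The first 3 comparisons all use the Hmhi EGF array, and the last uses 2 arrays again. The median size of a difference, sign aside, was 0.58 for the 10 genes with EGF against 0.35 for all genes. It was 0.14 against 0.20 for Miz1 kd minus Hmhi EGF and 0.22 against 0.24 for MYC-TA minus Hmhi EGF. For MYC-TA minus Miz1 kd it was 0.28 against 0.35.

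The remaining EGF arrays were also set against Hmhi starved, comparisons added after the levels had been seen. In MYC-TA minus Hmhi starved, 3 of 10 genes were at least 2-fold lower, namely Zeb2 at -1.18, Mitf at -1.16 and Snai2 at -1.05, against 13.2% of all genes in either direction and 4.91% lower. Zeb1 followed at -0.96. With the mean of all sets of a gene that count was 1, with Zeb2 at -1.01. In the kd-labelled array minus Hmhi starved it was Snai2 alone, at -1.05, against 14.9% in either direction and 7.43% lower. These comparisons share the Hmhi starved array with the EGF comparison, so a high level in that array enters all 3. At 1.5-fold, 5 of 10 genes were apart in each, against 29.5% of all genes for MYC-TA and 35% for the kd-labelled array, where 1 of the 5 (Sox9) was higher.

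Close relatives of the 10 genes did not all follow them. Of the MiT family, Tfe3 read 9.41, 9.48, 9.63 and 9.36 and Tfeb 8.47, 8.32, 8.36 and 8.38 in the order Hmhi starved, Hmhi EGF, Miz1 kd and MYC-TA, with EGF differences of 0.07 and -0.15 inside the SD, beside the -0.90 of Mitf. Tfec was dim in all 4 arrays. Of the AP-2 family, Tfap2b had an EGF difference of -0.49 beside the -0.80 of Tfap2a, and the other 3 were dim. Snai1, the closest relative of Snai2, and Twist1, a basic helix-loop-helix EMT factor, were dim in every array, at 5.68 to 6.05 and 4.83 to 5.02. Twist2 was dim in 3 arrays and read 7.23 in MYC-TA. Of 15 EMT factors, 8 entered the EGF comparison, with a median of -0.23. Of these 8, 1 (Snai2) was at least 2-fold lower and 0 higher, against 4.96% and 7.98% of all genes. Besides Snai2, Zeb2 and Zeb1, the largest EGF differences on that list were those of Tcf3 at 0.66 and Tcf4 at -0.31, which encode E-proteins, and Klf4 at 0.21.

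Among SOX genes, differences far larger than those of Sox9 and Sox10 were seen. Sox11, a SOXC factor of embryonic neural cells, read 7.50 starved and 10.30 with EGF in Hmhi cells, 9.26 in the kd-labelled array and 10.35 in MYC-TA. All 6 of its sets were higher with EGF, by 2.69 to 2.99. Sox2 went the other way, from 11.06 to 9.88. Sox8, the third SOXE gene, read 6.60, 7.07, 6.34 and 7.81, and was 1.47 higher in MYC-TA than in the kd-labelled array, where it was dim, as in Hmhi starved. Of 8 SOX genes, 1 was at least 2-fold higher with EGF and 1 lower, against 7.98% and 4.96% of all genes. Their median of 0.14 turned to -0.01 with the stricter filter at the 75th percentile.

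The target genes of MITF were followed because Mitf was lower in all 3 EGF arrays. Tyr, the enzyme that starts melanin synthesis, was dim on all 3 sets, at 4.62, 5.63, 5.08 and 4.99 on the brightest, so nothing can be read from its order. Tyrp1 read 14.09 starved and 13.07 with EGF in Hmhi cells, 13.8 in the kd-labelled array and 13.05 in MYC-TA, and its other sets had EGF differences of -0.96 and -1.81. Dct read 9.79, 11.26, 9.19 and 11.08. With EGF, Tyrp1 thus had -1.02 and Dct 1.48, in opposite directions.

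Mlana, an antigen of the melanosome, had an EGF difference of -0.83, close to that of Mitf, and Pmel, the melanosome fibre protein, 1.51. Of 21 MITF targets past the filter, 8 were at least 2-fold higher with EGF, against 7.98% of all genes, and 1 (Tyrp1) lower, with a list median of 0.58. The 8 were led by Rragd at 2.91, a lysosomal GTPase gene that was dim in Hmhi starved, by Ppargc1a at 2.31 and by Tbx2 at 2.19. Against Hmhi starved, the list median was 0.06 in the kd-labelled array and 0.04 in MYC-TA, beside 0.02 and 0.06 over all genes. Mitf was at -0.85 and -1.16 there. The median in MYC-TA hides targets that went both ways: of 22, 5 were at least 2-fold higher and 5 lower, against 8.33% and 4.91% of all genes. Rragd, among the higher, was dim in Hmhi starved, and Oca2, among the lower, in MYC-TA. In the kd-labelled array 5 of 20 were higher and 1 lower, against 7.45% and 7.43%.

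In the other comparisons with Hmhi EGF, fewer MITF targets were 2-fold apart. In the kd-labelled array, 3 of 21 were at least 2-fold lower than in Hmhi EGF, against 2.5% of all genes, and 0 higher, against 0.29%: Rragd at -2.17, dim in the kd-labelled array, Dct at -2.07 and Ppargc1a at -1.86. Mitf itself differed by 0.05 there. In MYC-TA minus Hmhi EGF the anion channel gene Oca2 and the transporter gene Slc45a2 were at -3.16 and -2.70, 2 of 21 lower against 1.65%, with Oca2 dim in MYC-TA, and Rragd was higher by 1.03, against 1.3%. Mc1r, the melanocortin receptor that raises Mitf through cyclic AMP, read 8.41, 9.92, 10.37 and 9.01, and so had an EGF difference of 1.51. Of 6 SOX10 targets past the filter with EGF, 2 were at least 2-fold higher, against 7.98% of all genes, Dct and the receptor gene Erbb3 at 1.34. Mitf and Sox10, both of the 10 genes, are themselves among these 6, at -0.90 and -0.01. Gjb1, also among them, was dim in Hmhi starved and entered through Hmhi EGF alone.

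**Figure D3:**
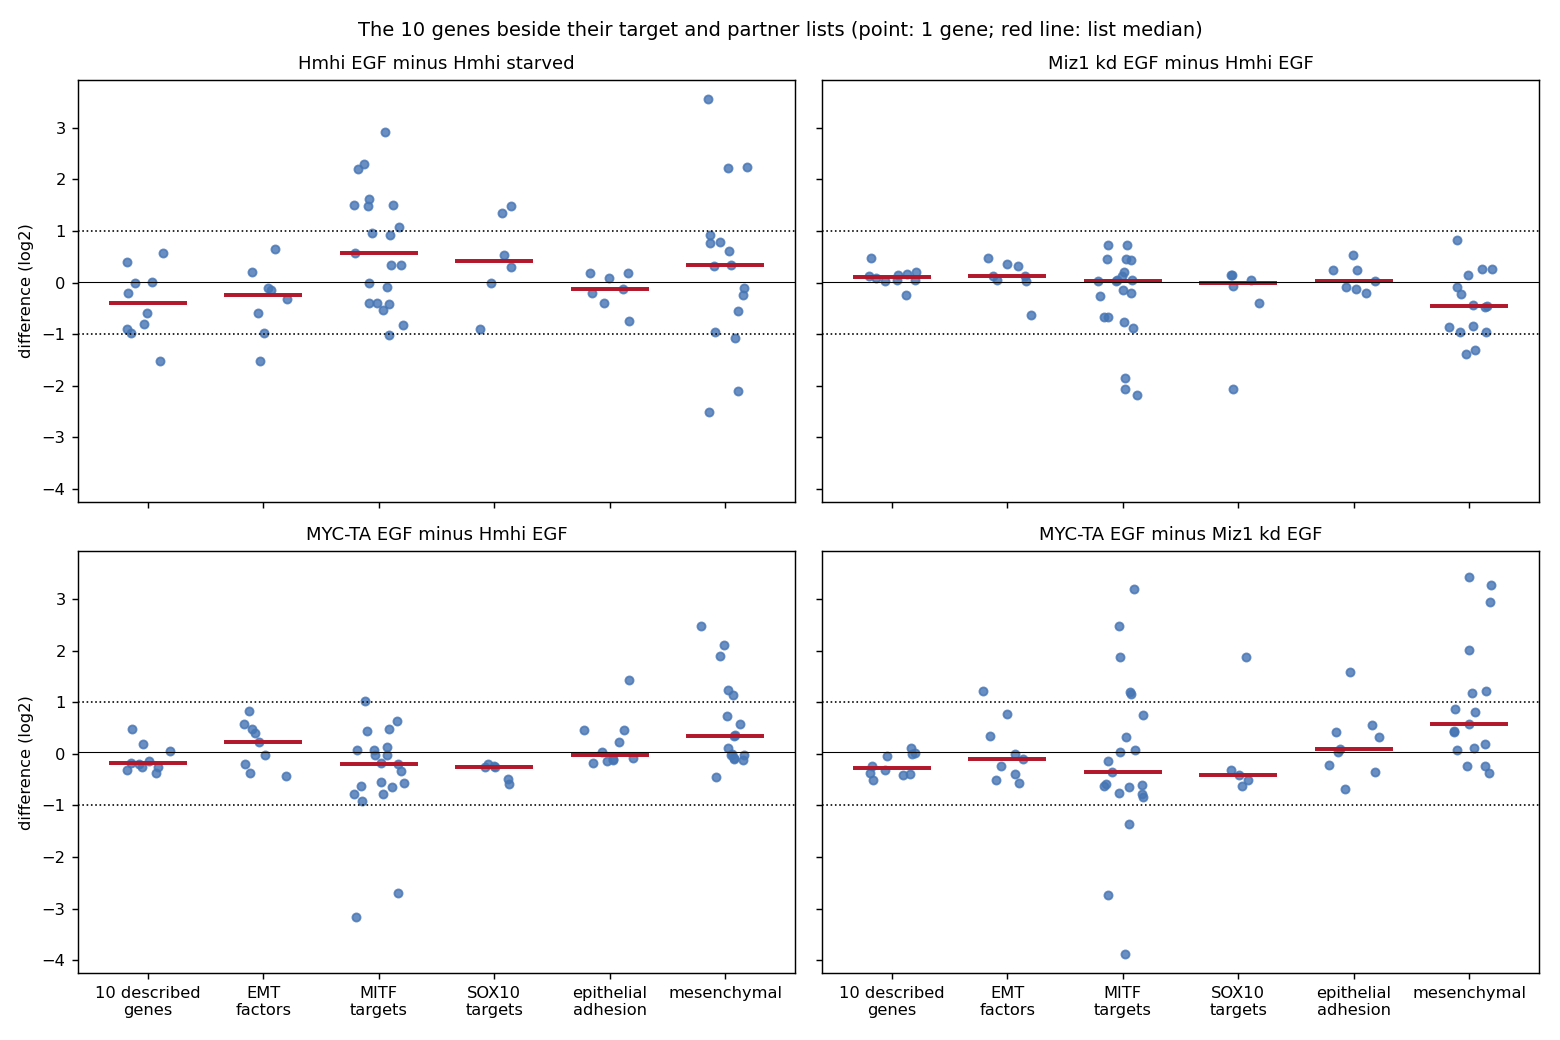
Each panel is 1 comparison of 2 arrays, and each point the log2 difference of 1 gene past the filter, for the 10 genes and for 5 lists of partners and targets; red lines are list medians, dotted lines 2-fold and the thin line the median of all genes. With EGF the 10 genes have a median of -0.39 and the MITF targets 0.58, and between the EGF arrays no gene of the 10 lies further from 0 than the -0.51 of Zeb1. Some of the 10 genes are drawn again in other lists: Zeb1, Zeb2 and Snai2 among EMT factors, and Mitf and Sox10 among SOX10 targets.

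Adhesion and mesenchymal genes that EMT factors are known to act on were read beside Zeb1, Zeb2 and Snai2. Cdh1, which encodes E-cadherin and is repressed by all 3 factors, was dim in every array, at 6.17, 5.38, 4.91 and 6.05. Cdh2, the gene of N-cadherin, read 13.12 starved and 12.04 with EGF in Hmhi cells, 12.30 in the kd-labelled array and 12.38 in MYC-TA. Hmhi starved was highest and Hmhi EGF lowest, the same order of extremes as for Snai2, and the second set had -1.73 with EGF beside -1.08.

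Of 23 epithelial adhesion genes, 13 were dim in all arrays. With EGF, 0 of the 7 that entered were 2-fold apart, against 12.9% of all genes. Epcam was the furthest at -0.75. Ocln, of tight junctions, was dim in 3 arrays and read 7.39 in MYC-TA, 1.44 above Hmhi EGF. Of 16 mesenchymal genes, 3 were at least 2-fold higher with EGF (Tgfbi at 3.56, Postn at 2.24 and Mmp2 at 2.21) and 3 lower (S100a4 at -2.51, Acta2 at -2.11 and Cdh2), against 7.98% and 4.96% of all genes. Tgfbi was dim in Hmhi starved. In the kd-labelled array minus Hmhi EGF the list median was -0.46, beside 0.02 over all genes. Of 15, 2 were at least 2-fold lower (Tgfbi at -1.38 and Postn at -1.30) and 0 higher, against 2.5% and 0.29%. In MYC-TA minus Hmhi EGF, 5 of 17 were at least 2-fold higher, against 1.3% of all genes, and 0 lower. Of the 17, Tnc, which is 1 of the 5, and Lox entered only through MYC-TA and were dim in the other arrays. The 5 were led by the collagen gene Col3a1 at 2.48, Acta2 at 2.11 and Tgfbi at 1.90, while Zeb1, Zeb2 and Snai2 differed by -0.37, -0.20 and 0.47. Col3a1 is also on the fibroblast marker list. The log2 summed signal of that list was 12.2 in MYC-TA, 11.7 in Hmhi EGF and 11.9 in the kd-labelled array, but highest in Hmhi starved, at 12.3. Of the other bright fibroblast markers, Dcn had 1.22 in MYC-TA minus Hmhi EGF and Pdgfrb -3.27. The part of such cells was not tested.

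For the 3 genes of the 10 that ranged over at least 1 log2 unit, genes with the most similar profile over the 4 arrays were looked up among 3060 genes of at least that range. Likeness was the root mean square difference of the profiles after each gene's mean had been removed. The closest to Mitf was Zeb2, at 0.04, ahead of the malic enzyme gene Me1 and Tmem62. The closest to Zeb2 were Zmat1, Me1 and the SNARE gene Stx8, at 0.03 to 0.04. The closest to Snai2 were Adh7, an alcohol dehydrogenase gene, at 0.05, Pdlim2 at 0.07 and the helicase gene Wrn at 0.09. Within 0.1 there were 49 genes for Mitf, 53 for Zeb2 and 5 for Snai2, so with 4 points a close match to the first 2 was common.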

How the data were processed

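The deposited table holds log2 signals of 45101 probe sets, which the authors had already normalized: the sorted columns lay within 0.004 of each other. Per the labels' protocols, 100 ng of each total RNA was amplified to biotinylated cRNA (IVT-Express). Log base, summarization and normalization method are not given in the sources used here, so the log2 scale is inferred from the range. The platform annotation of 2016 named 1 gene for 34945 sets and several for 932. The set brightest on average stood for a gene, which entered a comparison if the brighter array was at or above its median of non-control sets. Control sets were left out.

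No test was run, and a gene was counted when at least 2-fold apart. The 10 genes and the 13 lists of relatives and targets were chosen with earlier results of these data known. All 10 genes were named, with up to 4 others per list and comparison by size of difference, a short fixed set of relatives and pigment genes, and the 3 nearest profiles. The counting code was run on simulated data with known shifts and technical noise only, which checks the code and not the error of comparing single arrays. Alternatives were a common median, quantile normalization, loess with span 0.4, averaging the sets of a gene, keeping only plain _at sets, dropping the filter or raising it to the 75th percentile, and a 1.5-fold threshold. Python 3.11.15, pandas 2.3.3, numpy 2.4.6, statsmodels 0.14.6 and matplotlib 3.10.9 were used. Precision is limited by having 4 arrays.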

Additional observations from a re-analysis of the deposited data

How the results depend on the processing

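No paired analysis was possible because there are no replicates to pair, and with single arrays none could be left out. Counts of the 10 genes at least 2-fold apart were recomputed for 6 comparisons under 8 alternatives, and 44 of 48 stayed within 1.5 times of the first value. At the 1.5-fold threshold the count was 5 for Hmhi EGF, 5 for Miz1 kd and 5 for MYC-TA, each minus Hmhi starved. With the mean of all sets it was 1 for MYC-TA minus Hmhi starved. Many of the recomputed values could hardly move. The signals were already equalized, so a common median and quantile normalization left counts, differences and list medians as they were. The filter settings keep or drop a gene without changing its difference. For single genes only loess, the mean of all sets and plain _at sets could change a value. Of 392 recomputed differences of single genes, 388 moved by less than the technical SD and 0 of those past 2-fold turned. The 4 that moved were all of Zeb2 under the mean of all sets, which gave -0.49 with EGF and -0.52 for MYC-TA minus Hmhi EGF. The EGF differences of Snai2, Mitf, Tfap2a, Zeb1 and Zeb2 kept their sign under every alternative that gave a value. Of 546 list medians, 32 moved past the technical SD. That of the MITF targets with EGF ranged from 0.35 to 0.59. Without replicate cultures, none of these ranges holds biological spread.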

Other observations

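Some genes of the beta-catenin pathway differed more than Lef1, though the list median with EGF was 0.22 beside the 0.40 of Lef1. Tcf7l2, a TCF factor that shares the binding site of LEF1, read 9.26 starved and 8.36 with EGF in Hmhi cells, 7.43 in the kd-labelled array and 9.22 in MYC-TA. Its second brightest set had the same order, from 7.97 and 6.67 to 5.74 and 7.87, but was dim in the kd-labelled array. The remaining Tcf7l2 sets, dim in all arrays, had the kd-labelled array above Hmhi EGF by 0.12 and 0.06. Tle4, a Groucho corepressor of TCF factors, read 7.49, 9.65, 7.99 and 9.88, so it was higher in Hmhi EGF and MYC-TA than in the other arrays. Tle2, of the same family, had 1.46 with EGF and -1.58 in MYC-TA against Hmhi EGF. With EGF, 2 of 15 genes of this list were at least 2-fold higher and 0 lower, beside 7.98% and 4.96% of all genes.

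In the ETS family, Ets1 was nearly level with EGF on its brighter sets, but had -0.66 and -0.71 on the weaker ones. Etv5 and Etv4, which ERK signalling is known to induce, were higher with EGF by 3.10 and 2.04, Etv4 from a dim level. Elf1 was lower by 1.40. Of 11 genes of the MITF-low invasive state of melanoma that entered with EGF, 2 were at least 2-fold higher (Gas6 at 1.56 and Nrg1 at 1.48) and 3 lower (Ccn1 at -3.08, Nt5e at -2.20 and Thbs1 at -1.97), beside 7.98% and 4.96% of all genes. Nrg1 was dim in Hmhi starved and entered through Hmhi EGF alone. Axl, the receptor most used to mark that state, read 11.78, 12.27, 12.50 and 12.05 in the order Hmhi starved, Hmhi EGF, Miz1 kd and MYC-TA. The median of that list with EGF, 0.05, turned negative under 3 of 7 alternatives, and its mean was -0.37. Of the regulators of Mitf, Onecut2 had -1.34 and Bhlhe40 -0.81 in MYC-TA against Hmhi EGF, and Pou3f2 and Creb1 differed by at most 0.13 between the EGF arrays. Axl, Creb1 and Pou3f2 were chosen after their values were seen.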
